A study of Mus musculus with 24 samples.

Results

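NKX homeobox factors were followed across the 4 conditions of a calibrated RNA-seq (cRNA-seq) experiment in mouse embryonic stem cells (ESCs). The 9 genes were taken by symbol from a table of 20633 transcripts and 19409 gene symbols: *Nkx2-1*, *Nkx2-2*, *Nkx2-3*, *Nkx2-4*, *Nkx2-5*, *Nkx2-9*, *Nkx3-2*, *Nkx6-1* and *Nkx6-2*. Each of the 9 had 1 transcript in the table. The experiment asked how gene expression responds when PRC1 is removed and when only its catalytic activity is removed. The PRC1CKO line (E14 strain, clone B9) carries *Ring1a*-/-, *Ring1b* fl/fl and *Rosa26*::ERT2-Cre, so that 4-hydroxytamoxifen (OHT) activates Cre and deletes *Ring1b* in cells that already lack *Ring1a*. The PRC1CPM line (E14 strain, clone 41) carries the I50A and D53K changes in *Ring1a*, a floxed *Ring1b* that OHT switches from wild type to the I53A and D56K form, and *Rosa26*::ERT2-Cre. Each line is 1 clone, the untreated controls carry the same alleles as the treated cells, and no line with both wild-type genes was part of the comparison. Cells were taken untreated or after 72 h in 800 nM OHT, with 3 biological replicates of each of the 4 conditions, which gave 12 libraries holding 14668159 to 27016156 reads on genes. *Drosophila* SG4 cells mixed into each sample set the scale, and the values below are normalised read counts, that is reads over the gene body divided by the size factor of the library.

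NKX proteins are homeodomain transcription factors that specify regions and organs of the embryo, and many of them repress alternative fates together with Groucho/TLE corepressors. In ESCs their genes are textbook targets of the Polycomb system, in which PRC1 ubiquitylates histone H2A, PRC2 methylates histone H3, and CpG-rich DNA around the start sites of genes is the usual place of binding. They are scarcely transcribed in pluripotent cells and come on only in the lineages that need them.

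The *Ring1* and *Rnf2* genes, which encode RING1A and RING1B, were read first. *Rnf2* had 1530 ± 201 normalised reads (SD, n = 3) in untreated PRC1CKO cells and 1550 ± 50.8 after OHT, and 1700 ± 140 and 1510 ± 214 in PRC1CPM cells. *Ring1* had 227 ± 76.3 and 254 ± 26.4 in PRC1CKO cells, and 162 ± 32.2 and 140 ± 25.8 in PRC1CPM cells. Neither gene was called changed by OHT in either line. Counts over a whole gene body include the parts that the alleles leave in place, so these values do not check the labels. Of 10 markers of pluripotent ESCs (among them *Tdgf1*, the most abundant), all passed the detection filter, and their values are given with those of other cell types at the end.

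Where the genes lie bears on what their counts can hold. On GRCm38, *Nkx2-1* (chr12:56531935-56535106) and *Nkx2-9* (chr12:56611397-56613284) lie 76290 bases apart, and *Nkx2-2* (chr2:147183152-147186402) and *Nkx2-4* (chr2:147083876-147085345) lie 97806 bases apart. The others stand alone, at chr19:43612325-43615892 for *Nkx2-3*, chr17:26838665-26841565 for *Nkx2-5*, chr5:41761483-41764220 for *Nkx3-2*, chr5:101659197-101664711 for *Nkx6-1* and chr7:139579376-139582797 for *Nkx6-2*. All but *Nkx2-3* are on the minus strand. The transcripts have 2 to 4 exons in RefSeq, except that the *Nkx2-1* transcript of the table is not in the annotation used here. Its start site lies 1802 bases inside the RefSeq gene, whose promoter is therefore another one. The 3251 bases of *Nkx2-2* share 2320 bases with the antisense gene *Nkx2-2os*, and *Nkx6-2* shares 277 bases with *Inpp5a* on the other strand. The library kit keeps strand, but whether the counting used it is not given in the sources used here, so reads in these overlaps cannot be assigned to one gene.

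Since CpG-rich DNA is where PRC1 binds, the CpG content of the start sites was read from the genome. Within 500 bases of the start site on either side the 9 genes had 44 to 114 CpG dinucleotides with a median of 79, against a median of 48 (quartiles 17 and 74) over 20627 start sites of the table. *Nkx2-4* (114), *Nkx6-1* (105) and *Nkx6-2* (100) had more than at least 91.1% of start sites, *Nkx3-2* (80) and *Nkx2-1* (79) more than 79.5% and 78.6%, while *Nkx2-2* (48), *Nkx2-5* (48), *Nkx2-3* (47) and *Nkx2-9* (44) lay near the median. In the 250 bases before the RefSeq start site the 9 genes had 8 to 33 CpG, all above the median of 6 over 32851 promoters. They had more than 57.0% to 96.0% of promoters, with *Nkx2-1*, whose RefSeq promoter is another one, at 59.7%. A few sequences show the range, written 5′ to 3′ with each CpG in capitals, from RefSeq on GRCm38.p6. *Nkx2-4* (chr2:147085346-147085595, minus strand) has the most, 33, and *Nkx6-1* (chr5:101664712-101664961, minus strand) has 30. *Nkx2-3* (chr19:43612075-43612324, plus strand), the gene with the largest fold change in PRC1CPM cells, has 14, and *Nkx2-2* (chr2:147186403-147186652, minus strand) has 8.
Nkx2-4: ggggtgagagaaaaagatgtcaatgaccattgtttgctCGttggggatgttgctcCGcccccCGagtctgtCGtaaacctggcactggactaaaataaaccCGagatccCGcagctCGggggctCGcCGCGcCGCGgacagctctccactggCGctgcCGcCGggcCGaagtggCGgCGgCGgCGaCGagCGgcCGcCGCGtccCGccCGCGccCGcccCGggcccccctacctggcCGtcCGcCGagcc
Nkx6-1: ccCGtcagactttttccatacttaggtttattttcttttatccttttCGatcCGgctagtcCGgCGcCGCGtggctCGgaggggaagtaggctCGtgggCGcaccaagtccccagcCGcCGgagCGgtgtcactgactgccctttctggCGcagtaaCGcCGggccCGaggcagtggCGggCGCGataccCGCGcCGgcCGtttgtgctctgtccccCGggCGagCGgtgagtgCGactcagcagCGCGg
Nkx2-3: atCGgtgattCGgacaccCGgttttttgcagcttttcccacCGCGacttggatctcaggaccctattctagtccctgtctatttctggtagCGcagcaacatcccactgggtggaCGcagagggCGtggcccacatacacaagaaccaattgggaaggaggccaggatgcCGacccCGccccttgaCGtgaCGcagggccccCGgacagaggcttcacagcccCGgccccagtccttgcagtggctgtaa
Nkx2-2: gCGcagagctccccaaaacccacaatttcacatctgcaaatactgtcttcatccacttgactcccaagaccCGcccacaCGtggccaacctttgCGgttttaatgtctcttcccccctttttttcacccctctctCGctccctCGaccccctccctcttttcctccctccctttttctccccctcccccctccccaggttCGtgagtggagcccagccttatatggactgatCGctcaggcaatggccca
Of 3 motifs searched on both strands, the E-box CACGTG was found once in *Nkx2-2* and in no other member (6.0% of all promoters hold it), and TNAAGTG, a core that NKX2 proteins bind, once in *Nkx2-2* alone (10.1% of all). The GLI motif GACCACCCA was in none (0.2% of all). The matches do not overlap each other, and a match here is a description of the sequence only.

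**Figure D1:**
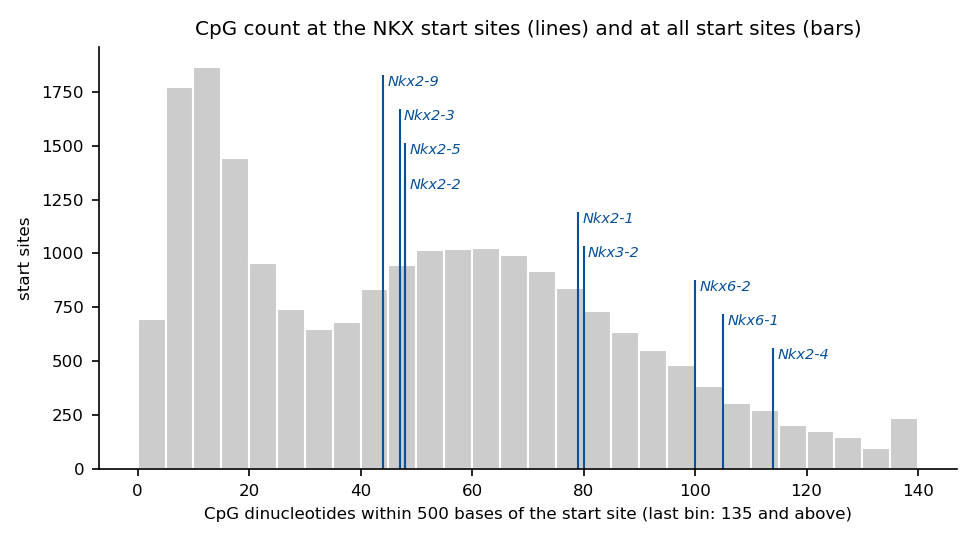
CpG dinucleotides within 500 bases of 20627 start sites (bars, number of start sites) and of the 9 NKX genes (labelled lines, whose heights carry no value). The NKX genes run from 44 for *Nkx2-9* to 114 for *Nkx2-4*, with 5 of 9 above the median of 48.

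Nearly all NKX genes were higher after OHT in both lines. In PRC1CKO cells 8 of the 8 tested were higher, at log2 fold changes of 1.60 to 5.04, and in PRC1CPM cells 7 of 8 were higher (8 with the replicate number as a block), at fitted changes of 1.07 to 4.19 over the 8. Calls needed more than a 1.5-fold change and a limma adjusted p below 0.05, which 16.5% of 16940 tested transcripts met as higher and 3.09% as lower in PRC1CKO cells, and 13.1% and 1.4% in PRC1CPM cells. The values of untreated and OHT-treated libraries did not overlap in any of the 9 genes, in either line (the share of tested transcripts that were higher without overlap was 22.1% in PRC1CKO and 18.7% in PRC1CPM). The median log2 fold change of the 8 was 3.05 in PRC1CKO and 2.24 in PRC1CPM cells, against 0.12 and 0.10 over all transcripts tested. These counts describe the genes and no more, since a filter of at least 10 reads in at least 3 libraries set which were tested. *Nkx3-2* did not pass it, 4 of the 8 that did had no untreated library with 10 reads, and only *Nkx2-5*, *Nkx2-9* and *Nkx6-2* had 3 or more untreated libraries at that depth. Those 4, *Nkx2-1*, *Nkx2-2*, *Nkx2-3* and *Nkx6-1*, were tested only through OHT libraries. Their adjusted p-values for the rise, given below, are no support beyond the values themselves. With no filter, 9 of 9 were called higher in PRC1CKO and 8 of 9 in PRC1CPM cells. Of all 19791 transcripts tested in that way, 2658 and 2081 were called higher. Cells were sequenced in bulk, so a rise in fewer cells and a smaller rise in every cell cannot be told apart.

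**Figure D2:**
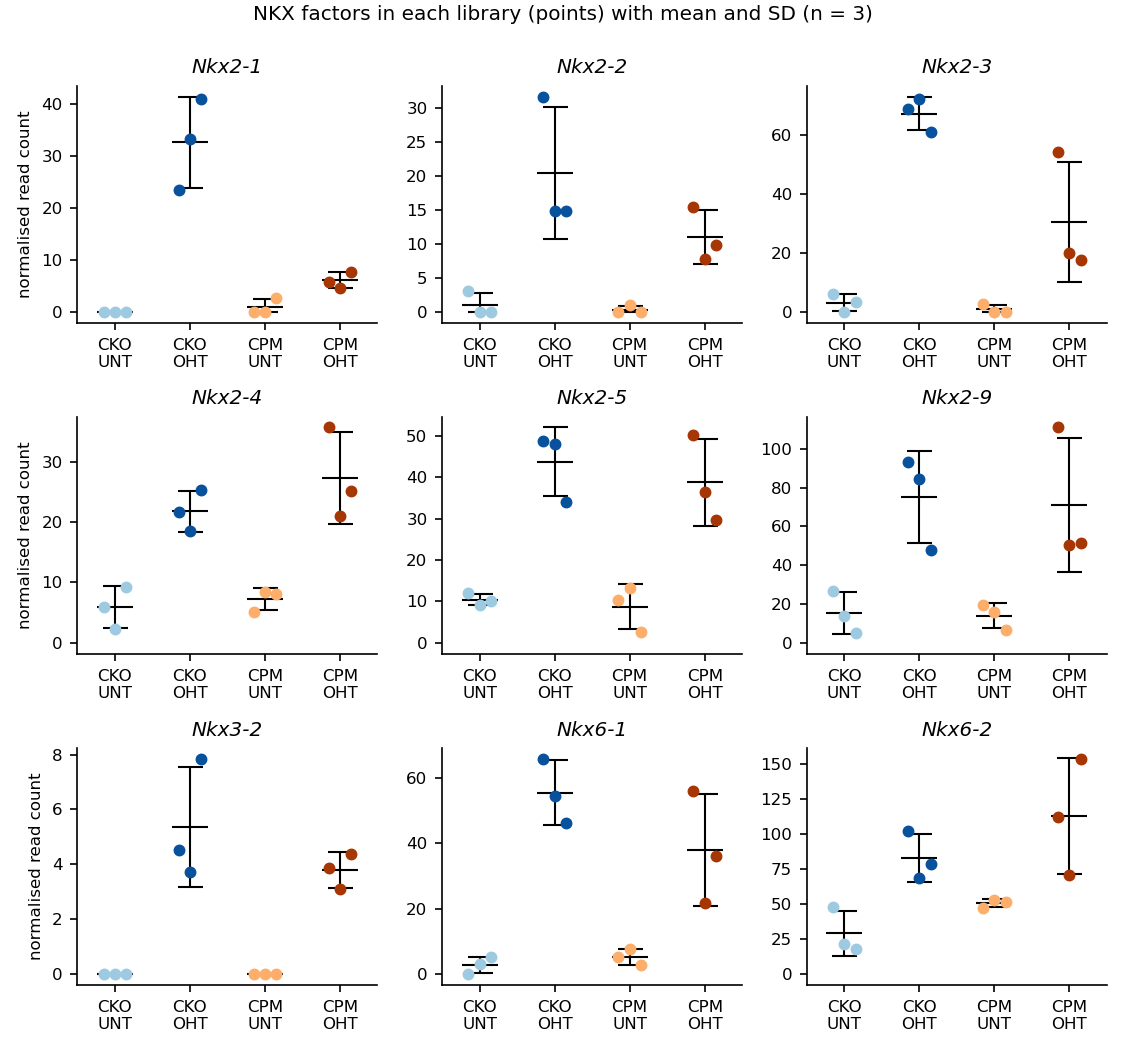
Normalised read counts of the 9 NKX genes (vertical axes from near 0, a scale for each gene) in the 3 libraries of each condition (points), with the mean and SD (black, lower end drawn no lower than 0; CKO, PRC1CKO; CPM, PRC1CPM; UNT, untreated). In each panel the OHT points lie above the untreated points of the same line, and for *Nkx2-1* the PRC1CPM OHT points (4.64 to 7.67) lie below those of PRC1CKO (23.5 to 41.0).

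*Nkx2-1* and *Nkx2-4* act in the ventral forebrain and hypothalamus. The former, which also specifies thyroid and lung, was at 0 in the 3 untreated PRC1CKO libraries, which allows up to 1.9 normalised reads at 3 read pairs over the group. After OHT it was at 23.5, 33.3 and 41.0, a mean of 32.6 ± 8.77 (SD, n = 3), at least 17.2-fold higher (log2 fold change 5.04, SE 0.76, adjusted p = 5.3e-07). *Nkx2-1* passed the filter only through these OHT libraries, so that p-value is no support beyond the values themselves. In PRC1CPM cells it was at 0, 0 and 2.71 untreated and at 5.79, 4.64 and 7.67 after OHT. The rise there rests on 10 read pairs against 1, a ratio of 7.96 with a counting interval of 1.13 to 345 (95%, exact; counting error only, as for all such limits), and its log2 fold change was 2.16 (SE 0.76, adjusted p = 0.0448). That call is a narrow one. Its log2 fold change was 2.79 without PRC1CPM untreated replicate 3, and it was lost with edgeR (adjusted p = 0.068), DESeq2 (0.0982) or a pseudocount of 0.1 (0.0899), with the PRC1CPM libraries alone (0.0904), and without PRC1CPM untreated replicate 1 (0.14) or 2 (0.152) or PRC1CPM OHT replicate 1 (0.117), 2 (0.0654) or 3 (0.164).

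*Nkx2-4*, the closest relative of *Nkx2-1*, had reads in every library. It was at 5.96, 2.31 and 9.30 in untreated PRC1CKO cells and at 21.7, 18.5 and 25.3 after OHT (3.73-fold, log2 fold change 1.87, SE 0.56, adjusted p = 0.00989). In PRC1CPM cells it went from 5.11, 8.48 and 8.13 to 35.7, 20.9 and 25.2 (3.76-fold, log2 fold change 1.77, SE 0.56, adjusted p = 0.0205). The 2 fold changes lay close together, and the test of their difference had a 95% interval of -1.68 to 1.47 on the log2 scale. The PRC1CKO call was lost without PRC1CKO untreated replicate 2 (adjusted p = 0.109) or OHT replicate 3 (0.0551), and the PRC1CPM call without PRC1CPM untreated replicate 1 (0.0732) or OHT replicate 1 (0.121) or 3 (0.0576) and with a pseudocount of 0.1 (0.0501).

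*Nkx2-2*, *Nkx2-9*, *Nkx6-1* and *Nkx6-2* pattern the ventral neural tube, and *Nkx2-2* and *Nkx6-1* also direct the formation of pancreatic beta cells. *Nkx2-2* had 2 reads in all untreated PRC1CKO libraries together (2.98, 0 and 0 normalised) and stood at 31.6, 14.8 and 14.8 after OHT (log2 fold change 3.67, SE 0.76, adjusted p = 0.000162). In PRC1CPM cells it was at 0, 0.942 and 0 untreated and at 15.4, 7.73 and 9.86 after OHT (log2 fold change 3.22, SE 0.76, adjusted p = 0.00138). The ratios of read pairs were 33.1 (5.57 to 1340) and 14.3 (2.26 to 597), so that the size of its rise is known only within a wide range. Without PRC1CKO untreated replicate 1, the one with reads, its log2 fold change was 4.33. Its overlapping antisense gene *Nkx2-2os* rose beside it, from 7.20 ± 4.09 to 108 ± 18.8 in PRC1CKO cells (SD, n = 3) and from 4.85 ± 4.72 to 50.5 ± 31.0 in PRC1CPM cells (there 4.22 and 2.53 on the log2 scale without untreated replicates 2 and 3, against 3.53).

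*Nkx2-9*, which shares the ventral-most progenitors with *Nkx2-2*, was among the most highly expressed members. It was at 26.8, 13.9 and 5.07 in untreated PRC1CKO cells and at 93.1, 84.2 and 48.0 after OHT (4.93-fold, log2 fold change 2.43, SE 0.49, adjusted p = 0.000117). PRC1CPM cells had 19.2, 16.0 and 6.78 untreated and 111, 50.3 and 51.5 after OHT (5.07-fold, log2 fold change 2.27, SE 0.49, adjusted p = 0.00047). The untreated libraries spread widely, yet the highest of them stayed below the lowest OHT library of its line.

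*Nkx6-1* went from 0, 3.08 and 5.07 to 66.0, 54.6 and 46.2 in PRC1CKO cells, a 20.5-fold rise (log2 fold change 4.26, SE 0.59, adjusted p = 8.3e-08). That size rests on 10 untreated reads, and without untreated replicate 1, which had none, the log2 fold change was 3.49. In PRC1CPM cells it went from 5.11, 7.54 and 2.71 to 56.0, 21.6 and 36.1, a 7.41-fold rise (log2 fold change 2.65, SE 0.59, adjusted p = 0.000704). *Nkx6-2*, which also acts in the oligodendrocyte lineage, had the highest untreated level of the 9 and the smallest change. The transcript counted for it is annotated without coding exons, and reads in the 277 bases shared with *Inpp5a* cannot be assigned to one gene. *Nkx6-2* was at 47.7, 21.5 and 17.8 in untreated PRC1CKO cells and at 102, 68.5 and 78.5 after OHT (2.86-fold, log2 fold change 1.60, SE 0.39, adjusted p = 0.00149). The PRC1CPM libraries had 47.3, 52.8 and 51.5 untreated and 112, 71.1 and 154 after OHT, 2.23-fold by the means, which did not pass the test (log2 fold change 1.07, SE 0.39, adjusted p = 0.0561). This value stands at the edge of the threshold, and the gene was called higher there with edgeR (adjusted p = 0.0305), DESeq2 (0.0181), either other scale of the libraries (0.0224 with TMM), the PRC1CPM libraries alone (0.0474), the replicate number as a block (0.00118), or without PRC1CKO untreated replicate 1 (0.0229), 2 (0.0378) or 3 (0.0495) or PRC1CPM OHT replicate 2 (0.0239).

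The remaining members belong to mesoderm. *Nkx2-3*, which shapes the gut wall and the spleen, was at 5.96, 0 and 3.38 in untreated PRC1CKO cells and at 68.7, 72.2 and 61.1 after OHT (21.6-fold, log2 fold change 4.45, SE 0.66, adjusted p = 4.4e-07). Without untreated replicate 2, which had no reads, the log2 fold change was 3.63. Untreated PRC1CPM cells had 2.56, 0 and 0, and OHT-treated cells 54.1, 20.1 and 17.5 (log2 fold change 4.19, SE 0.66, adjusted p = 3.4e-06). The ratio of read pairs there was 39.0 with an interval of 6.68 to 1570, and OHT replicate 1 stood far above the other OHT libraries of the line. Without PRC1CPM untreated replicate 1, the one with reads, the log2 fold change was 4.80. *Nkx2-5*, a regulator of heart formation, went from 11.9, 9.23 and 10.1 to 48.8, 48.1 and 34.0 in PRC1CKO cells (4.18-fold, log2 fold change 1.95, SE 0.51, adjusted p = 0.00294). In PRC1CPM cells it went from 10.2, 13.2 and 2.71 to 50.2, 36.3 and 29.6 (4.44-fold, log2 fold change 2.21, SE 0.51, adjusted p = 0.00105), and without PRC1CPM untreated replicate 3 the log2 fold change was 1.62. *Nkx3-2*, which acts in the forming vertebrae, was at 0 in all 6 untreated libraries. After OHT it was at 4.52, 3.70 and 7.85 in PRC1CKO cells, at least 2.84-fold higher, and at 3.86, 3.09 and 4.38 in PRC1CPM cells, at least 1.59-fold higher. It was too low to be tested, and without the filter it was called higher in both lines (adjusted p = 0.000414 and 0.00292).

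**Figure D3:**
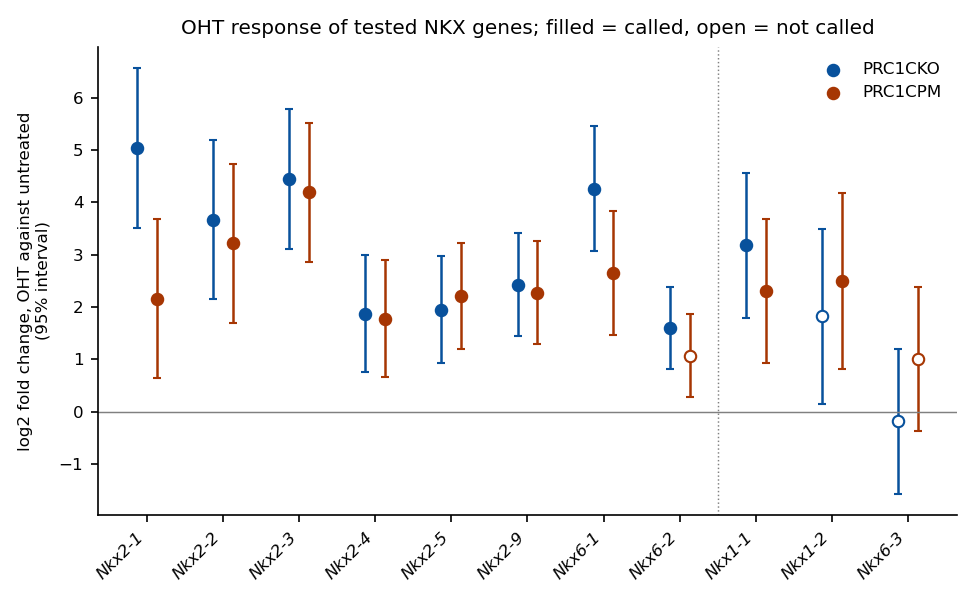
Log2 fold change of OHT-treated against untreated cells with its 95% interval from limma, in PRC1CKO (blue) and PRC1CPM (orange), for the 8 tested NKX members (left of the dotted line) and 3 other NKX genes; filled points were called. The members lie between 1.07 and 5.04, and *Nkx6-2* in PRC1CPM cells is the open point among them.

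The 2 lines were then compared with each other. Untreated, 0 of 8 NKX genes differed between them in limma (2.69% of transcripts were called in either direction), 1 had an unadjusted p under 0.05, and edgeR and DESeq2 also called 0. That 1 gene was *Nkx6-2*, at 50.5 ± 2.86 in PRC1CPM against 29.0 ± 16.3 in PRC1CKO cells (SD, n = 3; log2 difference 0.91, adjusted p = 0.248), which was called without PRC1CKO untreated replicate 1 (1.32, adjusted p = 0.0235). With the replicate number as a block, which pairs the libraries of this comparison, 1 of 8 was called, *Nkx6-2* (adjusted p = 0.013), and 1631 of all transcripts were higher and 253 lower in PRC1CPM cells. After OHT, limma on the deposited scale called 0 of 8 (1.47% of transcripts), and 1 had an unadjusted p under 0.05. Of the 8, 6 were lower in PRC1CPM cells, with a median log2 difference of -0.40 against 0.10 over all transcripts. The share of all transcripts that were lower was not counted, and genes are not replicates, so this is a description only. With the block 0 of 8 were called, and 1131 of all transcripts were higher and 232 lower. The largest difference was that of *Nkx2-1*, at 6.03 ± 1.53 in PRC1CPM against 32.6 ± 8.77 in PRC1CKO cells, with no overlap (log2 difference -2.24, 95% interval -3.77 to -0.72, adjusted p = 0.142). It was called lower with edgeR (-2.43, adjusted p = 0.017), DESeq2 (-2.45, 0.03), TMM (-2.33, 0.036) and the median-of-ratios scale (-2.33, 0.0366). The gene passed the filter on low counts only through the 3 PRC1CKO OHT libraries (26, 36 and 47 reads, against 6, 6 and 7 in PRC1CPM OHT libraries), the group where it is high, so these calls are no support for a difference between the lines. *Nkx2-3* was the other gene without overlap, at 30.6 ± 20.4 against 67.3 ± 5.69 (log2 difference -1.29, 95% interval -2.63 to 0.04, adjusted p = 0.475). For the 7 others the OHT libraries of the lines overlapped. The share of all transcripts without overlap in this comparison was not counted, so these counts are no result about the genes.

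Whether the response itself differed was tested by the interaction of line and treatment. None of 8 NKX genes was called in limma (0.0236% of transcripts were), 1 had an unadjusted p under 0.05, and edgeR and DESeq2 called 0. The estimates were wide, from -2.88 for *Nkx2-1* (95% interval -5.03 to -0.72, unadjusted p = 0.0099) and -1.61 for *Nkx6-1* (-3.29 to 0.06) to 0.25 for *Nkx2-5* (-1.19 to 1.70). *Nkx2-1* passed the filter only through the PRC1CKO OHT libraries, so its interval and p-value are no support for a different response. Each of the 8 intervals extended to a response more than 2 times smaller in PRC1CPM cells, and the missed threshold does not show equal responses.

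Levels of different genes were compared per kb of gene body, the interval over which reads were counted. In OHT-treated PRC1CKO cells the order of the levels ran from *Nkx2-9* (39.8 ± 12.7 normalised reads per kb, SD, n = 3) through *Nkx6-2* (24.3 ± 5.05), *Nkx2-3* (18.9 ± 1.60), *Nkx2-5* (15.0 ± 2.88), *Nkx2-4* (14.9 ± 2.31), *Nkx2-1* (10.3 ± 2.77), *Nkx6-1* (10.1 ± 1.80) and *Nkx2-2* (6.28 ± 2.99) to *Nkx3-2* (1.96 ± 0.803). *Nkx2-5* and *Nkx2-4*, and likewise *Nkx2-1* and *Nkx6-1*, differed by less than these SDs. At these levels 28.8% to 72.5% of the transcripts in the table were lower per kb. Untreated PRC1CKO cells had from 0 for *Nkx2-1* and *Nkx3-2* to 8.08 ± 5.79 for *Nkx2-9* and 8.47 ± 4.76 for *Nkx6-2*. In OHT-treated PRC1CPM cells *Nkx2-9* (37.6 ± 18.4) and *Nkx6-2* (32.9 ± 12.2) again led, and *Nkx2-1* (1.90 ± 0.482) and *Nkx3-2* (1.38 ± 0.237) came last. Per kb of exon *Nkx6-1* moved up, to 30.8 in OHT-treated PRC1CKO cells, since exons make up 32.8% of its body, the smallest share of the 8 with annotated exons.

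The summed level of the 9 genes was 101, 50.0 and 50.7 in untreated PRC1CKO libraries, 460, 398 and 357 after OHT, 89.5, 99.0 and 74.6 in untreated PRC1CPM libraries and 444, 236 and 336 after OHT. PRC1CPM OHT replicate 1 held the highest value of its group for 6 of the 9, and PRC1CKO untreated replicate 1, PRC1CKO OHT replicate 1 and PRC1CPM untreated replicate 2 each for 5 of the 9. PRC1CKO untreated replicate 1 stood apart from the other untreated libraries of its line in the NKX sum and in other markers, with *T* at 133 against 26.2 and 16.9, *Gata6* at 262 against 128 and 79.5, *Col1a1* at 3670 against 1120 and 1580, and summed pluripotency markers at 102000 against 67700 and 76400. Without it 8 of 8 members were called higher in each line, and between untreated lines 1491 of all transcripts were higher and 78 lower in PRC1CPM cells. Replicate 1 of PRC1CPM had the highest summed fibroblast markers, 15400 untreated and 16000 after OHT, against 4000 to 6930 in the other 4 libraries of that line. The part of this in the NKX values was not tested, and without PRC1CPM OHT replicate 1 the test called 5 of 8 in PRC1CPM cells, against 5 of 8 without replicate 3 and 7 of 8 without replicate 2.

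The genes with the most similar pattern over the 12 libraries, by Pearson correlation with the mean standardised level of the 8 tested members, were *Il1rap* (0.996), *Foxd2os* (0.994), *Foxd1* (0.992), *Alcam* (0.991) and *Cd24a* (0.990). *Il1rap* encodes the accessory chain of the interleukin-1 receptor, *Foxd1* a forkhead factor, and *Alcam* and *Cd24a* cell surface proteins. Their log2 fold changes were 1.81, 3.74, 2.80, 3.69 and 1.71 in PRC1CKO and 1.41, 3.17, 2.26, 2.75 and 1.55 in PRC1CPM cells. The 12 libraries share 4 conditions, so these correlations are a description only. The members themselves correlated with their mean at 0.835 for *Nkx6-2* to 0.972 for *Nkx2-2*.

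Of NKX genes outside the 9, 4 are described here. *Nkx1-1*, expressed in the early nervous system, rose in both lines, from 1.38 ± 1.77 to 17.3 ± 4.65 in PRC1CKO (SD, n = 3; log2 fold change 3.18, adjusted p = 0.000301) and from 2.97 ± 2.27 to 17.3 ± 6.97 in PRC1CPM cells (2.31, adjusted p = 0.0138). Its ratio of read pairs in PRC1CKO cells was 9.15 (95% counting interval 2.83 to 46.9). The PRC1CPM call was lost without PRC1CPM untreated replicate 2 (adjusted p = 0.0792) or OHT replicate 1 (0.108) and with a pseudocount of 0.1 (0.107). *Nkx1-2* was called higher in PRC1CPM cells (log2 fold change 2.49, adjusted p = 0.0323), where its libraries overlapped at 5.11, 0 and 0 untreated and 22.2, 1.55 and 17.5 after OHT, and in PRC1CKO cells it had a log2 fold change of 1.83 (adjusted p = 0.13, and 0.0422 with the replicate block, where it was called). The ratio of read pairs in PRC1CPM cells was 8.36 (2.04 to 73.5), and the log2 fold change was 3.37, 1.91 and 3.5 without PRC1CPM untreated replicate 1 and OHT replicates 1 and 2. Its call was lost with DESeq2 (adjusted p = 0.218), on the TMM (0.073) or median-of-ratios scale (0.0733), with a pseudocount of 0.1 (0.053), with no filter (0.0553), and without PRC1CPM untreated replicate 2 (0.0578) or 3 (0.133) or OHT replicate 1 (0.25) or 3 (0.151). *Nkx6-3*, a stomach factor, had log2 fold changes of -0.18 and 1.01 (adjusted p = 0.92 and 0.452). *Nkx2-6*, a heart and pharynx factor, had 4 reads in the 12 libraries and was not tested.

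Genes beside the NKX loci were read next, 19 of them within 100 kb. Of the 18 tested, 3 were higher and 1 lower in each line, with median log2 fold changes of -0.06 in PRC1CKO and 0.08 in PRC1CPM cells. Higher calls were made for 16.5% and 13.1% of all transcripts tested, so 3 of 18 is near the background and is no result about the neighbours. The 3 were *Nkx2-2os* (3.82 and 3.53), *Pax9*, a paired-box gene 82354 bases from *Nkx2-9* (4.98 and 3.47), and *Slc25a21*, a mitochondrial carrier gene next to *Pax9* (4.73 and 2.47). Without PRC1CKO untreated replicates 1 and 3 the PRC1CKO value of *Slc25a21* was 5.44 and 3.88, and without PRC1CPM untreated replicates 2 and 3 the PRC1CPM value of *Nkx2-2os* was 4.22 and 2.53. *Pax9* went from 2.98, 1.54 and 3.38 to 130, 112 and 92.5 normalised reads in PRC1CKO cells and from 2.56, 5.65 and 2.71 to 52.1, 40.2 and 53.7 in PRC1CPM cells. The gene nearest to *Nkx2-1*, *E030019B13Rik*, 2514 bases away, was not called (-0.16 and 0.53), nor was *Xrn2* (-0.01 and 0.09), an RNA exonuclease gene 5878 bases from *Nkx2-4*, nor *Inpp5a* (0.24 and 0.36). *6430503K07Rik*, 1021 bases from *Nkx2-2*, was at 0 in the 6 untreated libraries and at 1.55 to 3.70 after OHT, too low to be tested. *Crebrf*, 62038 bases from *Nkx2-5*, fell in both lines (-0.97, adjusted p = 0.00198, and -0.86, adjusted p = 0.009), a call lost in PRC1CPM cells without PRC1CPM untreated replicate 1 (0.069) or OHT replicate 2 (0.143).

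**Figure D4:**
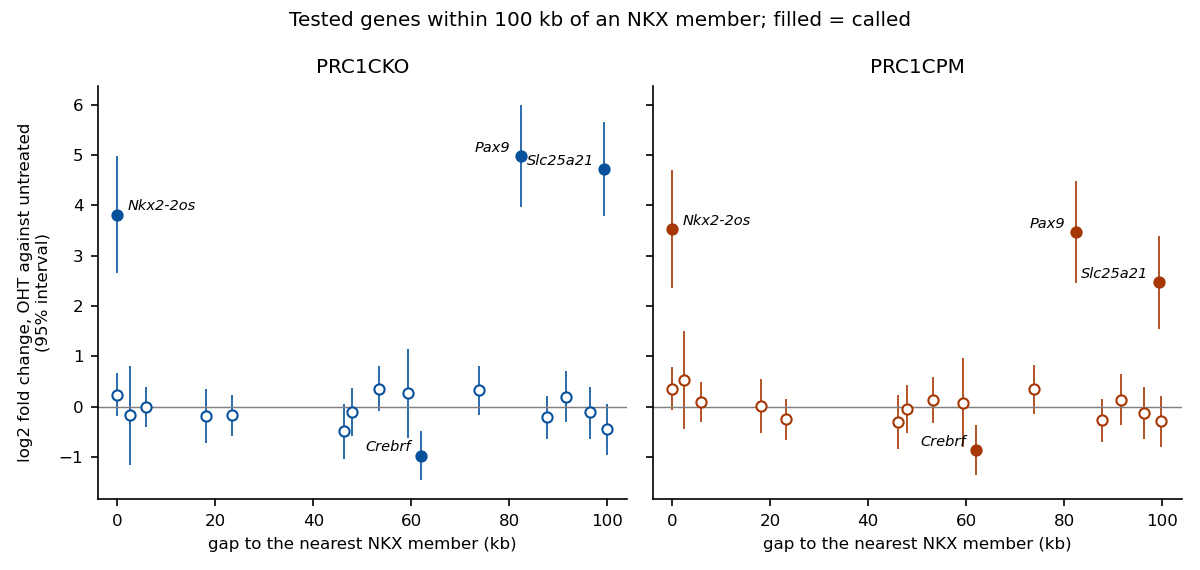
Log2 fold change of OHT-treated against untreated cells, with its 95% interval, for the 18 tested genes within 100 kb of an NKX member, by the gap in kb to the nearest member; filled points were called. *Nkx2-2os*, *Pax9* and *Slc25a21* stand between 2.47 and 4.98, *Crebrf* lies below 0, and the other 14 were not called.

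Partners and co-regulated genes of the NKX factors were taken from lists made for the organs in which they act. Among 12 tested genes of ventral neural tube patterning, 8 were higher and 2 lower in PRC1CKO cells (median log2 fold change 2.67), and 7 were higher and 1 lower in PRC1CPM cells (1.38). The largest changes in PRC1CKO cells among the genes called were those of *Sim1* (4.84 and 3.81), *Olig2*, which marks the motor neuron domain that *Nkx2-2* and *Nkx6-1* border or share (4.35 and 3.69), *Mnx1* (3.15 and 1.97) and *Pax6*, which opposes *Nkx2-2* (3.06 and 1.28). The lower genes, named after their values were seen, are targets of Hedgehog signalling, the pathway that induces these NKX genes in the neural tube. *Ptch1*, the Hedgehog receptor, fell from 6340 to 1880 in PRC1CKO (-1.75, adjusted p = 8.8e-10) and from 5210 to 2200 in PRC1CPM cells (-1.23, adjusted p = 6.9e-06), and *Gli1* fell in PRC1CKO cells (-1.16, adjusted p = 0.000115) and stood at -0.65 in PRC1CPM cells (adjusted p = 0.0554, and 6.99e-05 with the replicate number as a block). *Shh*, the ligand, was too low to be tested. *Gli3* and *Gli2*, other Hedgehog pathway genes of the list, were likewise named afterwards. *Gli3* was called higher in PRC1CKO cells (0.75, adjusted p = 0.0129) and not in PRC1CPM cells (0.49, adjusted p = 0.171). That call was lost without PRC1CKO untreated replicate 3 (0.226) or OHT replicate 1 (0.148). *Gli2* was not called in either line (-0.37 and -0.05). *Olig2* had at most 2 untreated read pairs in a line, and its ratios of read pairs were 26.0 (95% counting interval 6.87 to 220.0) and 23.1 (3.83 to 943). Of the calls of this list, 9 of 10 in PRC1CKO and 4 of 8 in PRC1CPM cells were kept under all settings tried, and without PRC1CKO untreated replicate 3 the change of *Olig2* was 5.06. In PRC1CPM cells the call of *Pax6* was lost without untreated replicate 1 (adjusted p = 0.0563) and that of *Mnx1* without OHT replicate 1 (0.082). Of the 6 Groucho/TLE corepressors, 1 was called in either line, *Tle2* (1.47 and 1.68), with medians of 0.09 and 0.25. That count is near the 16.5% and 13.1% of all transcripts. With the replicate block 2 were called in PRC1CKO cells, the second being *Tle6* (0.85, adjusted p = 0.0537 without and 4.87e-05 with the block), and 2 of the ventral neural list were lower in PRC1CPM cells.

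In the list of ventral forebrain, thyroid and lung genes, where *Nkx2-1* acts, 6 of 9 tested were higher in PRC1CKO and 4 of 9 in PRC1CPM cells (medians 1.28 and 0.88). With the replicate block the count was 7 in each line. In PRC1CKO cells they were led by *Lhx8* (5.88 and 4.19), *Foxe1* (4.63 and 2.66), *Foxa1* (3.48 and 2.66) and *Tshr* (2.54 and 1.72), whereas the lung genes *Sftpa1*, *Sftpb*, *Sftpc* and *Scgb1a1* were too low to be tested. In the pancreatic list 5 of 9 were higher in each line (medians 1.34 and 1.47; 6 in PRC1CPM cells with the block), with *Isl1* (3.05 and 1.47), *Ptf1a* (2.90 and 2.36) and *Pdx1* (2.82 and 3.14), and the hormone genes *Ins1*, *Ins2* and *Gcg* were not tested. Few reads lay under some of these changes, with ratios of read pairs of 56.1 (18.9 to 275) for *Lhx8*, 36.9 (9.88 to 310.0) for *Foxe1* and 10.9 (2.69 to 95.2) for *Ptf1a* in PRC1CKO cells, and of 5.97 (1.39 to 53.8) for *Ptf1a* and 12.3 (3.14 to 106) for *Pdx1* in PRC1CPM cells. Without PRC1CKO untreated replicate 3 the change of *Lhx8* was 6.75. Of the pancreatic calls, 5 of 5 in PRC1CKO and 3 of 5 in PRC1CPM cells were kept under all settings. The PRC1CPM call of *Isl1* was lost without PRC1CPM untreated replicate 2 (adjusted p = 0.0532) or 3 (0.117) or OHT replicate 1 (0.17) or 3 (0.0969) and with a pseudocount of 0.1 (0.0561). That of *Ptf1a* was lost with DESeq2 (0.0555) or a pseudocount of 0.1 (0.0714), and without untreated replicate 1 (0.113) or OHT replicate 1 (0.0585), 2 (0.0615) or 3 (0.0782) of that line.

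In the cardiac list, where *Nkx2-5* acts, 8 of 11 were higher and 1 lower in PRC1CKO cells, and 7 higher and 1 lower in PRC1CPM cells (medians 2.68 and 1.97). With the replicate block 9 were higher in PRC1CKO cells. The factors *Hand2* (4.95 and 2.82), *Tbx20* (4.33 and 2.93) and *Mef2c* (3.06 and 2.26) rose, and *Actc1*, which encodes cardiac actin, fell (-3.33 and -1.58). *Hand2* was at 0 in the untreated PRC1CKO libraries and at least 15.9-fold higher after OHT. Single libraries moved some of these values in PRC1CKO cells, that of *Mef2c* to 3.82 and 2.42 without untreated replicates 1 and 3, and that of *Actc1* to -3.97 and -2.63 without OHT replicates 1 and 3. Of the calls, 8 of 9 in PRC1CKO and 5 of 8 in PRC1CPM cells were kept under all settings. The PRC1CPM calls of *Hand2* and *Actc1* were narrow. That of *Hand2* was lost with DESeq2 (adjusted p = 0.0514) and without PRC1CPM OHT replicate 1 (0.0518), and its value was 3.85 without PRC1CPM untreated replicate 2. That of *Actc1* (adjusted p = 0.0462) was lost with a pseudocount of 0.1 (0.285), with no filter (0.0797), and without PRC1CKO untreated replicate 3 (0.0553), PRC1CPM untreated replicate 1 (0.138) or 2 (0.087), or PRC1CPM OHT replicate 1 (0.0993), 2 (0.0677) or 3 (0.165). In the list of axial skeleton, gut and spleen mesoderm, where *Nkx2-3* and *Nkx3-2* act, 7 of 9 were higher in PRC1CKO and 6 of 9 in PRC1CPM cells (3.55 and 2.83), with *Barx1* (5.14 and 2.83), *Uncx* (5.12 and 4.68), *Pax9* and *Pax1* (4.89 and 3.86). With the replicate block 8 were higher in each line, *Sox9* (1.18, adjusted p = 0.0976 without and 0.00809 with the block) and *Meox1* (1.44, 0.0938 and 0.0395) being the added calls in PRC1CPM cells and *Meox2* (1.38, 0.166 and 0.0448) in PRC1CKO cells. The ratios of read pairs were 59.6 (16.2 to 498) and 27.5 (7.32 to 231) for *Uncx* and, in PRC1CKO cells, 40.1 (13.4 to 197) for *Pax1*. Without PRC1CKO untreated replicate 2 the log2 fold change of *Pax1* was 4.2, and without PRC1CPM untreated replicate 2 that of *Uncx* was 5.43. Of the calls, 7 of 7 and 5 of 6 were kept under all settings. *Pax1* and *Pax9* are known to act upstream of *Nkx3-2* in the vertebrae.

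**Figure D5:**
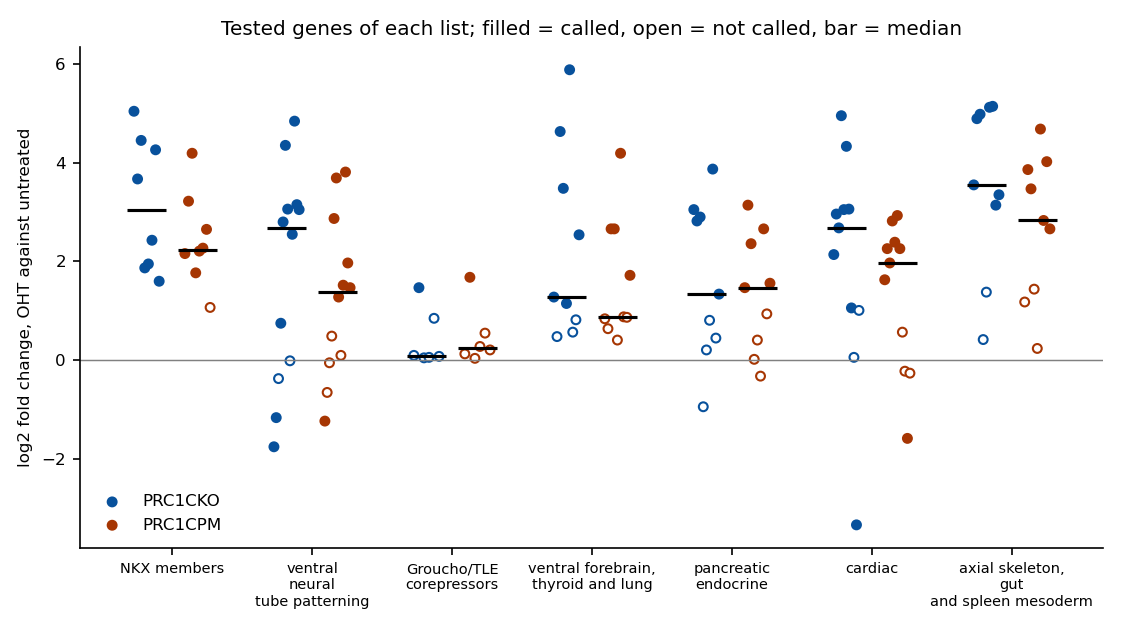
Log2 fold change of OHT-treated against untreated cells for the tested genes of each list (points, horizontal positions spread for view) in PRC1CKO (blue) and PRC1CPM (orange), with the median of each (black bar); filled points were called. The NKX medians are 3.05 and 2.24, those of the corepressors 0.09 and 0.25.

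Markers of some other cell types moved with the treatment as well, and their part in the NKX values was not tested. Of all transcripts tested, 16.5% were called higher and 3.09% lower in PRC1CKO cells, and 13.1% and 1.4% in PRC1CPM cells. Of 10 pluripotency markers 2 were lower in PRC1CKO cells, *Sox2* (-0.89) and *Utf1* (-0.79), which stood at -0.45 and -0.41 in PRC1CPM cells (adjusted p = 0.136 and 0.273). Their summed level was 82100 ± 18100 untreated and 63500 ± 5080 after OHT in PRC1CKO cells, and 70600 ± 12600 and 65700 ± 18800 in PRC1CPM cells (SD, n = 3), with *Tdgf1* the most abundant (25.6%). Of 7 primitive endoderm markers 5 were higher in PRC1CKO and 7 in PRC1CPM cells, and their sum rose from 1160 ± 588 to 3620 ± 666 and from 740 ± 67.9 to 1950 ± 393, with *Pdgfra* the most abundant (29.9% of the sum) and *Gata6* (2.96 and 2.26), *Foxa2* (2.80 and 2.87, the latter a ratio of read pairs of 10.6, 3.38 to 53.6) and *Gata4* (2.14 and 1.63) among those that rose. Under all settings 4 of the 5 and 5 of the 7 calls were kept, and with the replicate block 6 were called in PRC1CKO cells. None of the markers of any of these cell types was at 0 in all 12 libraries. Of 4 tested primitive streak markers 2 were higher in PRC1CKO and 3 in PRC1CPM cells, among them *Eomes* (1.57 and 1.31), whose calls were kept under all settings, with sums of 160 ± 99.3 and 435 ± 93.5, and of 177 ± 85.8 and 450 ± 157, of which *Eomes* made up 47.9%. With the replicate block 4 were called in PRC1CKO cells. *T* and *Gsc* were named after their values were seen. The calls of *T* (1.88 and 1.51) were lost with DESeq2 in both lines (adjusted p = 0.246 and 0.309), without PRC1CKO untreated replicate 3 (0.064) and without PRC1CPM untreated replicate 3 (0.125) or OHT replicate 1 (0.146), and that of PRC1CPM also with no filter (0.0867), while the PRC1CKO value was 2.75 without PRC1CKO untreated replicate 1. The PRC1CPM call of *Gsc* (2.17) was lost with edgeR (0.0992), DESeq2 (0.121), TMM (0.0633) and the median-of-ratios scale (0.0642), and without PRC1CPM untreated replicate 3 (0.86, adjusted p = 0.572) or OHT replicate 3 (0.0771), and its value was 2.87 and 2.77 without PRC1CPM untreated replicates 1 and 2. Of 5 neurectoderm markers 3 were higher and 1 lower in PRC1CKO cells, and 2 were higher in PRC1CPM cells, with *Zfp521* at 1.78 and 1.44, *Nes*, the most abundant, at 1.28 and 0.45 and *Tubb3* at -0.71 and -0.43. The sums of the 5 were 1820 ± 573 and 3500 ± 282 in PRC1CKO, and 1960 ± 213 and 2900 ± 779 in PRC1CPM cells. The PRC1CKO calls of *Tubb3* and of the fibroblast marker *Thy1* were lost without any 1 of several libraries, at adjusted p of up to 0.188 and 0.164, and *Thy1* was under 1.5-fold on the other scales. Of 3 tested trophoblast markers 1 was higher in PRC1CKO and 2 in PRC1CPM cells, with *Hand1*, the most abundant, at 2.68 and 1.97 (lost in PRC1CPM cells with DESeq2, adjusted p = 0.0714) and sums of 120 ± 80.0 and 241 ± 97.9, and of 141 ± 64.1 and 307 ± 118. Without PRC1CKO untreated replicates 1 and 3 the PRC1CKO value of *Hand1* was 3.41 and 2.01. The other PRC1CPM call, likewise named after its value was seen, was *Cdx2* (1.71, adjusted p = 0.0272), lost with edgeR (0.063), DESeq2 (0.334), TMM (0.0783), the median-of-ratios scale (0.0792), a pseudocount of 0.1 (0.0553) and no filter (0.105), and without PRC1CPM untreated replicate 3 (0.93, adjusted p = 0.41) or OHT replicate 1 (0.227). Its value was 2.41 without PRC1CPM untreated replicate 1, and in PRC1CKO cells 1.04 (adjusted p = 0.22, and 0.0126 with the replicate block, where 2 of the list were called). Of 5 tested fibroblast markers 1 was higher in PRC1CKO cells, *Thy1* (0.65, and 0.27 with adjusted p = 0.616 in PRC1CPM cells), with sums of 3920 ± 2150 and 4140 ± 460, and of 8170 ± 6280 and 9330 ± 5890, of which *Col1a1* made up 62.3%. That count is near the share of all transcripts, and the median log2 fold changes of the 5 were 0.14 in PRC1CKO and 0.27 in PRC1CPM cells. With the replicate block 1 fibroblast marker was higher and 1 lower in each line.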

How the data were processed

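The deposited table held signal values made by the authors: reads over RefSeq gene bodies, divided by a size factor for each library. To make them, the authors discarded ribosomal DNA reads with Bowtie 2, mapped the rest with STAR, followed by Bowtie 2, to a reference that joined mouse mm10 and fly dm6, kept unique alignments, removed PCR duplicates with Sambamba, and took size factors (DESeq2) from the spike-in reads, corrected by matched genomic DNA libraries. Those 12 genomic libraries were not analysed here. Of the values, 100% were whole reads within 0.02 after the size factor was divided out. Of counts from 1 to 20 reads, 77.6% to 82.3% were even in each library, so mates of a pair seem to have been counted one by one. On that reading, limits from counts were set on read pairs, with 3 pairs over a group as the floor. Depth was 14668159 to 27016156 reads per library, and intervals and floors cover counting error only.

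Fold changes were tested with limma (3.58.1, R 4.3.3) on log2(normalised read count + 1), over all 12 libraries with 4 group means and trended variance, for the 16940 transcripts that reached 10 reads in 3 or more libraries, with Benjamini-Hochberg adjustment. For genes with few reads such fold changes can lie below or above those of other tests. In PRC1CPM cells *Nkx2-1* was at 2.16, against 2.91 with DESeq2, and *Foxf1* at 4.02, against 2.65. On the recovered reads, edgeR (4.0.16) called 2702 transcripts higher and 549 lower in PRC1CKO cells, and DESeq2 (1.42.0) 2757 and 561, against 2787 and 524 with limma. On the TMM scale limma called 2845 and 1133 in PRC1CKO and 2396 and 595 in PRC1CPM cells, against 2226 and 237 on the deposited scale. The median log2 fold change of all transcripts, 0.12 and 0.10 on the deposited scale, was near 0 there.

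Members, gene lists and tests were chosen with earlier results of these data known. Named were the members, the other NKX genes, the genes of every other list with the largest changes in PRC1CKO cells among those called (at most 4), genes within 100 kb of a member, the 5 transcripts most alike in pattern, *Ring1* and *Rnf2*. Some items are not reported here. Columns of the authors' own comparisons (8, with log2 fold changes and adjusted p-values) and their list of partly derepressed genes were not used. Replicate numbers in the labels were checked as pairs by the correlation of deviations from group means. Each same-number pair was above 0.1 in all comparisons but that within PRC1CKO, where 1 was at 0.099, so the fit with the number as a block is given where it changes the OHT response of a list or named gene, or a call of a member. Its calls between the lines and in the interaction for genes other than members, which also changed for some named genes, are not given. The scripts were tested on simulated data. Alternatives were another test, scale, pseudocount or filter, a replicate block, the libraries of 1 line, and each library left out in turn.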

Additional observations from a re-analysis of the deposited data

How the results depend on the processing

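All 8 tested members were called higher in PRC1CKO cells under every setting that kept the 12 libraries, and in PRC1CPM cells 7 or 8 were, except with a pseudocount of 0.1 (5). Leaving out 1 library gave 6 to 8 in PRC1CKO and 5 to 8 in PRC1CPM cells, and *Nkx2-1* fell below the filter without any 1 PRC1CKO OHT library. Between OHT-treated lines limma on the deposited scale called 0 members. *Nkx2-1* was called lower by limma on the TMM and median-of-ratios scales and with edgeR and DESeq2. It passed the filter only through the PRC1CKO OHT libraries, so these calls are no support for a difference between the lines. Between untreated lines the count was 0 to 1 with 1 library left out. The cause of these changes was not tested.

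Libraries of the same number deviated from their group means together (mean correlation 0.205 over 18 pairs, against -0.102 over 36 others), and 12 of 12 correlated best with their own number, although no label ties the numbers to a shared day or culture. With the replicate number as a block, 8 of 8 members were higher in each line, *Nkx6-2* in PRC1CPM cells included (adjusted p = 0.00118), 1 member, *Nkx6-2*, was called between untreated lines (adjusted p = 0.013), and over all transcripts 3435 were higher and 823 lower in PRC1CKO and 3033 and 461 in PRC1CPM cells. The block moved the interaction calls over all transcripts to 78 higher and 246 lower, and changed no other call of a member.

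Reversals were confined to differences between the lines that did not pass the test. The interaction of *Nkx2-3* (-0.26) was 0.78 with a pseudocount of 0.1, 0.48 with edgeR and 0.65 with DESeq2, and -0.84 to 0.56 with 1 library left out. The difference of *Nkx2-9* between untreated lines (0.03) was -0.07 on the TMM and median-of-ratios scales, -0.01 with edgeR, -0.04 with DESeq2 and -0.55 to 0.55 with 1 library left out, its difference after OHT -0.5 to 0.07 and its interaction -0.67 to 0.42. With 1 library left out, the difference between untreated lines ran from -0.68 to 0.32 for *Nkx2-2*, -0.07 to 0.75 for *Nkx2-4* and -0.82 to 0.15 for *Nkx2-5*, and the interaction from -0.47 to 0.35 for *Nkx2-4* and -0.33 to 0.63 for *Nkx2-5*.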
